A study of Mus musculus with 12 samples.

Results

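The cytochrome P450 enzymes of families 1, 2 and 3 are the mono-oxygenases with which liver oxidises drugs, environmental chemicals, steroids and fatty acids. All mouse genes whose symbol is Cyp1, Cyp2 or Cyp3 followed by a letter were taken, apart from Cyp2c70. RefSeq lists 86 such genes, 59 of them protein coding. Of these, 39 were measured by at least 1 probe set that belongs to a single gene, out of 17965 genes measured in all. A further 7 genes were measured only through 5 probe sets that several genes share, and the other 40 were not analysed here. Where a gene had several probe sets, the brightest over the 12 arrays was used. Of the 39 members, 26 had a mean intensity above 37.71, the median of all probe sets, and 13 were dimmer.

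Liver RNA came from 12 male 129SV mice, 6 wild type and 6 Sirt4 knockout. The animals were littermates aged 7 to 8 months, given no treatment and killed after a 16-h fast, and each was hybridised to 1 Affymetrix Mouse Genome 430 2.0 array, which reads each gene with sets of short probes. Sirt4 encodes a sirtuin of the mitochondrial matrix. The labels give neither the targeted allele nor the cells in which it was deleted. Because the samples were whole liver, fewer cells of a type and less RNA per cell cannot be told apart in any value below.

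P450 enzymes sit in the membrane of the endoplasmic reticulum, carry a heme group and take electrons from the reductase encoded by Por, with help from cytochrome b5. Their genes answer to receptors that sense foreign compounds: Cyp1 genes to the aryl hydrocarbon receptor AHR, Cyp2b genes to the constitutive androstane receptor CAR (Nr1i3), and Cyp3a genes to the pregnane X receptor PXR (Nr1i2). Many P450 genes are also zoned along the liver lobule, such as Cyp2e1 and Cyp1a2 around the central vein and Cyp2f2 around the portal tract.

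Intensities are linear values made by the authors, and array medians ran from 36.6 to 38.69. Correlations between arrays on the log2(intensity + 50) scale were 0.9881 to 0.9944. All 15 hepatocyte markers were measured and brighter than the median probe set, 8 with a log2 fold change above 0 and 7 below (median 0.0072). Sirt4 itself read 153.3, 175 and 186.99 in wild type (lowest, median, highest) and 81, 107 and 120.68 in knockout, with no overlap. The log2 fold change of -0.53 (SE 0.071) had a limma adjusted p = 0.0356. The call did not hold when 1 animal was omitted, for any of wild type 1 to 5 and knockout 1, 2, 3 and 5 (limma adjusted p 0.0525 to 0.161). Whether its probe set lies in the deleted part of the gene was not tested. Numbers in the sample titles begin with 72 for wild type replicates 1 and 2 and knockout replicates 1 to 5, and with 75 for the remaining 5 animals. The numbers of knockout replicates 1, 4 and 6 also end in a hyphen and a further 2, which no wild-type number does. The labels do not say what the numbers or this ending mean, and the part of the ending was not tested.

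No member of the 3 families differed between the genotypes at a limma adjusted p under 0.05 (0 of 39, adjusted p 0.747 to 0.999), where 0.00557% of all genes did; a gene past this threshold is termed called below. At an unadjusted p under 0.05, there were 5 members, or 12.8% of the 39 against 6.28% of all genes. On the higher side these were Cyp2c38, Cyp2d22, Cyp2c39 and Cyp1a2 (10.3% of members, background 3.13%), and on the lower side Cyp3a44 (2.56%, background 3.16%). The groups overlapped for every one of the 39 members, and 0.245% of all genes had groups that did not overlap. Log2 fold changes of knockout over wild type were above 0 for 23 members and below 0 for 16, with a median of 0.02, as against 50.3% above 0 and a median of 0.00049 over all genes. For 29 members the log2 fold change was under 0.1 in size, and for 19 the 95% confidence interval lay wholly within 0.2 of 0. The shares over all genes were not counted. Both counts include some of the 13 dimmer members, for which the offset of 50 shrinks the log2 fold change and its interval. Cyp3a16, in both counts, had a knockout mean at 79.6% of wild type but a log2 fold change of -0.061. For such genes a small value does not show that the groups were close. Among the animals with titles beginning with 72 alone (2 wild type, 5 knockout), the log2 fold changes were 0.88 for Cyp2c38, 0.63 for Cyp2c39, 0.25 for Cyp2d22, 0.18 for Cyp1a2 and -0.16 for Cyp3a44, while the other title series holds 1 knockout and was not fitted. The authors' deposited table has a column headed P value. There 2 of the 39 members, Cyp2c38 and Cyp2d22, were under 0.05 (5.13%), as were 1.7% of all probe sets, dim ones included. In its separate ttest column Cyp3a44 was under 0.05 as well (0.0159). That column is blank for the dim Cyp2b19, Cyp2c65, Cyp2j11 and Cyp2j13. Its share under 0.05 over all probe sets was not counted, and the 1.7% belongs to the P value column.

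**Figure D1:**
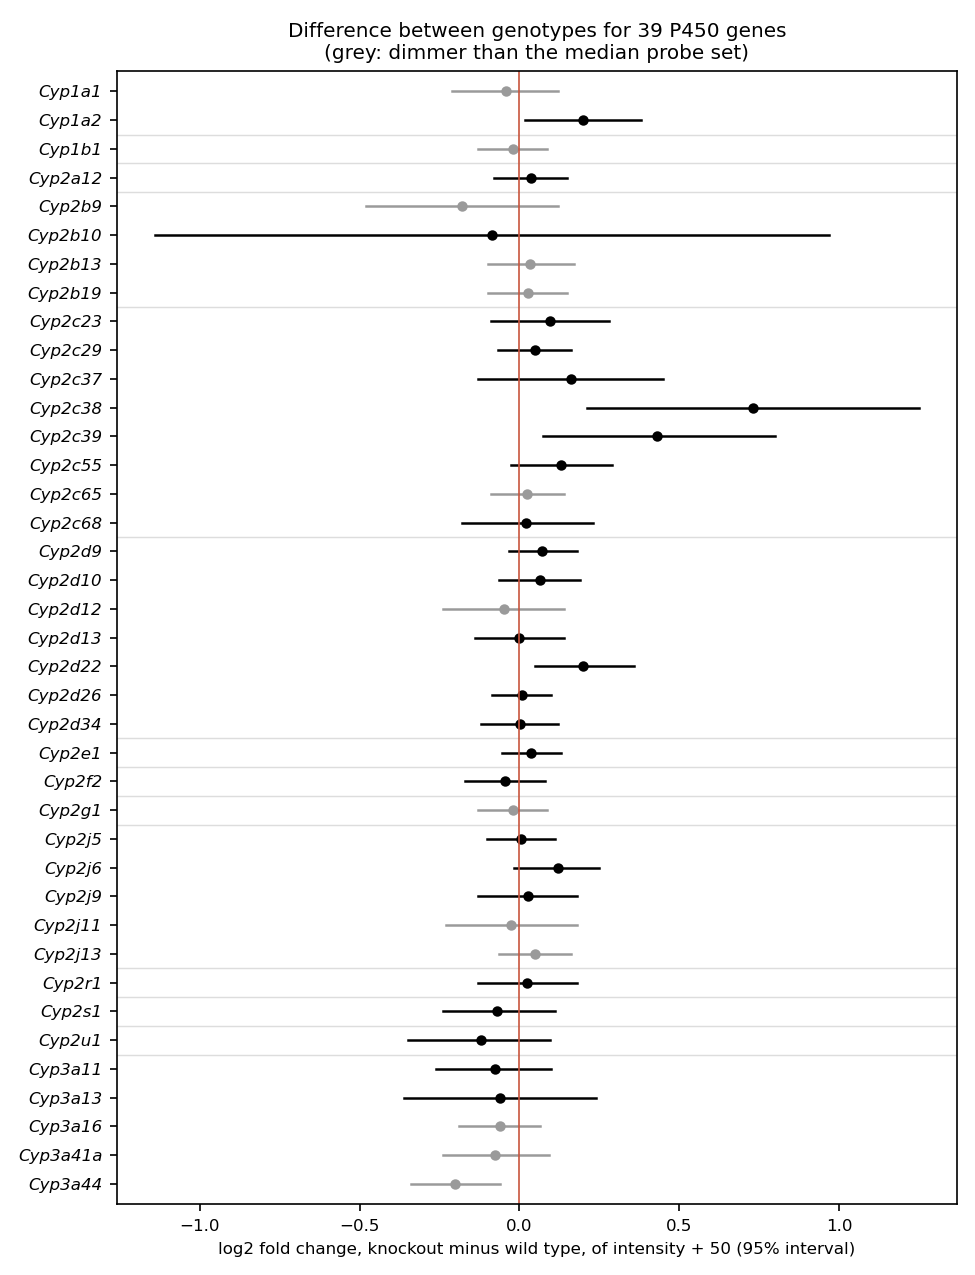
Log2 fold change (knockout minus wild type, of intensity + 50) for each of the 39 genes on the x axis, one gene per line and grouped by subfamily; points are estimates, bars 95% confidence intervals, and grey marks genes dimmer than the median probe set (37.71). All 8 Cyp2c genes lie above 0 and all 5 Cyp3a genes below it, and the interval excludes 0 for 5 genes.

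The Cyp2c subfamily, whose enzymes oxidise drugs and arachidonic acid, lay on the higher side. All 8 measured members had a log2 fold change above 0, with a median of 0.11 and a range from 0.02 for Cyp2c68 to 0.73 for Cyp2c38, and 0 of 8 passed the test. Under the other settings at most 1 of the members was below 0, and the median was 0.071 to 0.17. These genes lie together on chromosome 19 and are similar in sequence, so their probe sets are not independent readings.

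On the log2(intensity + 50) scale Cyp2c38 differed most among the 39 members; without the offset the dim Cyp3a44, with a knockout mean at 42.3% of wild type, differed by more. Wild-type animals read 275.45, 580 and 1040.37 (lowest, median, highest) and knockout animals 675.97, 1056.7 and 1291.73. All 6 knockout animals were above the wild-type median and 3 were above every wild type, while wild type replicates 4 and 5 lay among the knockouts. Means were 629 ± 289 and 1011.8 ± 235 (SD, n = 6 each), a log2 fold change of 0.73 (SE 0.24, 95% interval 0.21 to 1.25, limma adjusted p = 0.747). It was 0.54 to 0.92 under all 23 other settings, 0.88 with the title number as a factor in the fit. The authors' deposited table gives a fold change of 1.61.

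Cyp2c39, which encodes an enzyme known to hydroxylate retinoic acid in mice, read 2275.85, 2676.1 and 4753.16 in wild type and 2683.54, 4002.9 and 5210.91 in knockout. One wild type, replicate 5, lay above all knockout animals but 1. Its means were 2993.5 ± 928 and 4007.2 ± 835, and the log2 fold change came to 0.43 (SE 0.17, 95% interval 0.073 to 0.80, limma adjusted p = 0.747). Cyp2c38 and Cyp2c39 shared their highest animals: wild type replicate 5 in one genotype and knockout replicate 5 in the other. Their lowest animals differed within wild type (replicate 3 for Cyp2c38, replicate 6 for Cyp2c39) and were the same within knockout (replicate 1).

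The 250 bases before the annotated start of both genes are shown because these genes shared their highest animals. Sequences are from RefSeq (GRCm38.p6), and capitals mark TATAAA read on the gene strand. RefSeq gives 2 start sites for Cyp2c39, and the windows of the first and second lie at chr19:39347096-39347345 and chr19:39510572-39510821 on the plus strand, while that of Cyp2c38 lies at chr19:39463076-39463325 on the minus strand.
Cyp2c38: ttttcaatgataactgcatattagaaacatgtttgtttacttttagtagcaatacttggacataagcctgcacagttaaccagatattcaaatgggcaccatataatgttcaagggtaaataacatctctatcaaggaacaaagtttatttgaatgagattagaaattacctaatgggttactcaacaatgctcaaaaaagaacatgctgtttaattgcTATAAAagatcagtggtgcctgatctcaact
Cyp2c39, first window: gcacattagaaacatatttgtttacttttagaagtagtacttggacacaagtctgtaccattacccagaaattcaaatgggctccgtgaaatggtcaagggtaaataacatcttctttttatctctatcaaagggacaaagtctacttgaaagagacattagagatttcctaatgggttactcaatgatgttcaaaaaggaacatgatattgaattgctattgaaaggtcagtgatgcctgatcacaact
Cyp2c39, second window: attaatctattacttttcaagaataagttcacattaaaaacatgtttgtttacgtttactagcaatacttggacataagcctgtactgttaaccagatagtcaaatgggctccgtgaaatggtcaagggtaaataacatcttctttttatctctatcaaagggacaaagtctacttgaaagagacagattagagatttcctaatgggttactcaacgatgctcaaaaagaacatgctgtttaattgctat
Aligned end to end, Cyp2c38 shared 75.8% of positions with the first Cyp2c39 window and 71.0% with the second. The letters TATAAA occur in the Cyp2c38 window and in neither Cyp2c39 window. At the matching place the second Cyp2c39 window ends in the letters TAT, so it cannot show whether TATAAA stands there.

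The other Cyp2c members differed less. Cyp2c29, an abundant liver P450, read 11916.93, 13032.8 and 13384.42 in wild type and 11996.1, 13285.3 and 14432.74 in knockout (log2 fold change 0.049, 95% interval -0.067 to 0.16). Cyp2c23, an arachidonic acid epoxygenase, read 3528.8, 3751.2 and 4915.09 in wild type and 3768.2, 4216.4 and 4905.9 in knockout (0.097, 95% interval -0.089 to 0.28). All 6 knockout animals lay above the wild-type median for Cyp2c23, but its highest reading was a wild type, replicate 1. A probe set shared by Cyp2c50, Cyp2c37 and Cyp2c54 went the same way, at 3165.49, 4813.5 and 5586.94 in wild type and 5044.96, 5312.6 and 6433.13 in knockout. Its log2 fold change came to 0.29 (SE 0.12, limma adjusted p = 0.837 over all 45037 probe sets), and which of the 3 genes it read cannot be told apart. A brighter probe set, shared by these 3 genes and a further gene number, had means of 10049.9 in wild type and 11179.5 in knockout. It gave a smaller log2 fold change of 0.16 (SE 0.089, limma adjusted p = 0.868 over all probe sets).

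**Figure D2:**
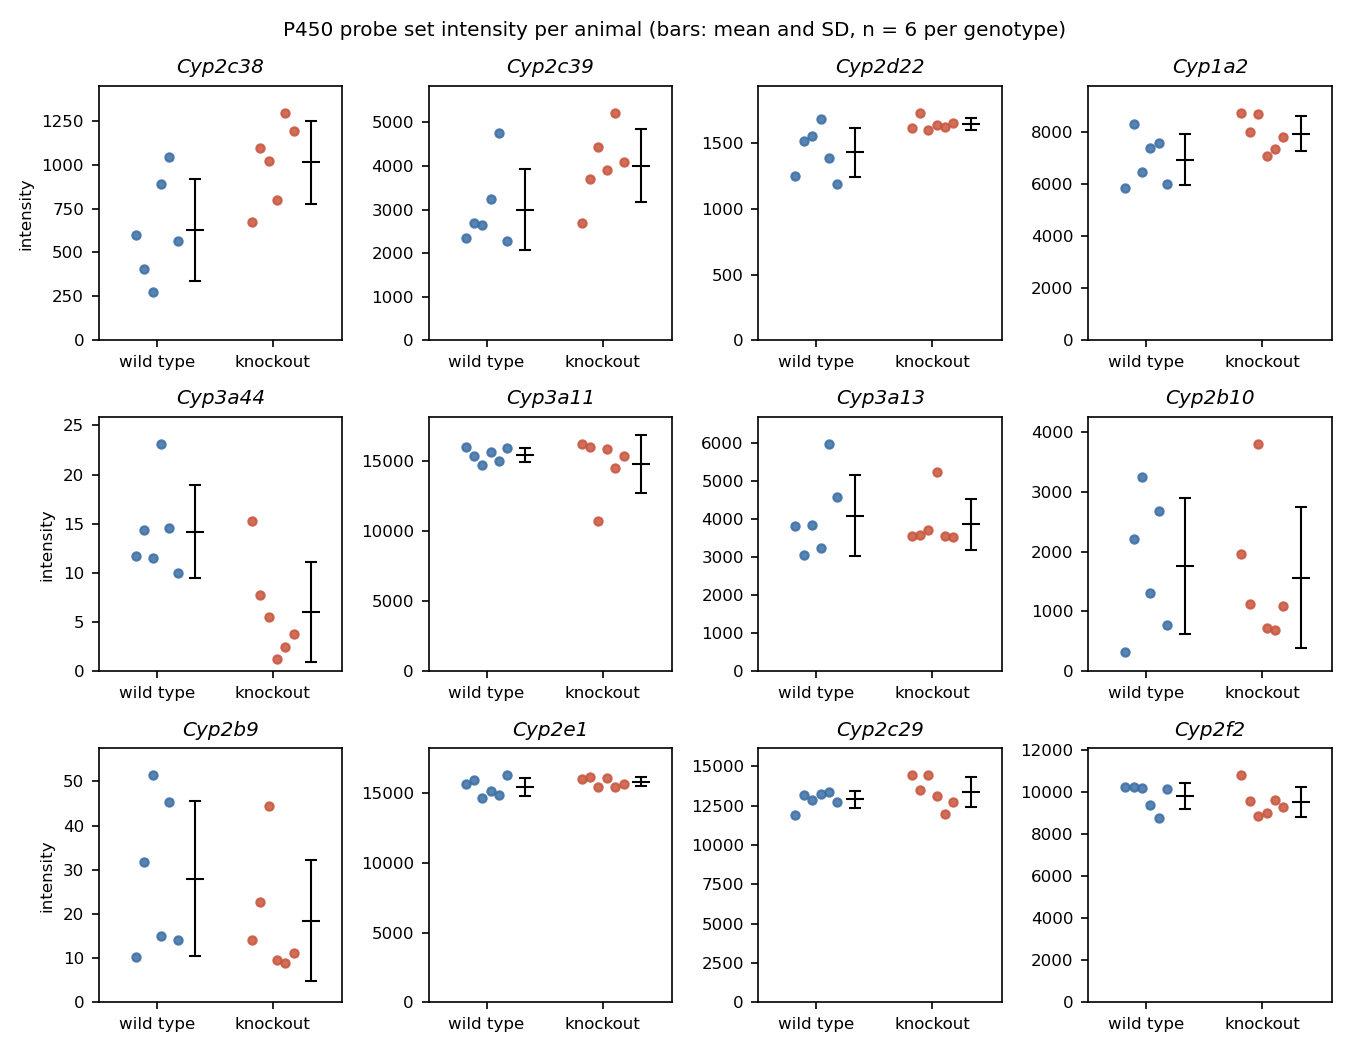
Intensity (y axis, linear, from 0) of 12 P450 genes in each of the 6 wild-type (blue) and 6 knockout (red) animals, with the mean and SD as a bar beside the points. Cyp2c38, Cyp2c39, Cyp2d22 and Cyp1a2 sit higher in the knockout with overlap, Cyp2b10 spreads from 329.97 to 3237.64 in wild type and from 691.17 to 3790.06 in knockout, and Cyp2e1 stays between 14605.2 and 16256.02.

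The Cyp2d subfamily, related to the human enzyme that clears many antidepressants and opioids, differed in 1 member at the unadjusted threshold. Cyp2d22 read 1188.49, 1452.1 and 1685.75 in wild type and 1602.29, 1630.7 and 1728.58 in knockout. Of the wild types, 5 of 6 lay below the lowest knockout animal, and replicate 4 lay above 5 of the knockouts. Means were 1430.1 ± 190 and 1644.1 ± 44.9, with a log2 fold change of 0.20 (SE 0.073, 95% interval 0.049 to 0.36, limma adjusted p = 0.747). A second probe set of the gene gave 0.14 (SE 0.054).

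Other Cyp2d genes had knockout means close to those of wild type. Cyp2d10 had a log2 fold change of 0.065 and Cyp2d9, a male-biased steroid hydroxylase in mice, 0.071. Cyp2d26 gave 0.0071, with a 95% interval from -0.087 to 0.10. Over all 7 measured Cyp2d genes, 5 were above 0 and the median was 0.0071. Without wild type replicate 1, 3 were above 0 and 4 below (median -0.016), and with the mean of all probe sets per gene the median was 0.065.

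The brighter Cyp2d genes varied more among wild-type than among knockout animals. In all 6 Cyp2d members above the median intensity the SD of log2 values was larger in wild type than in knockout, with a median ratio of 3.77, as against 56.9% of all genes and a median ratio of 1.1. Among all 26 brighter members, these 6 included, the SD was larger in wild type for 20 (76.9%), with a median ratio of 1.33. The Cyp2d genes are relatives on chromosome 15, so their readings need not be independent. For Cyp2d10 the readings ran from 9038.86 to 11552.14 in wild type and from 10421.65 to 11014.96 in knockout. Wild type replicate 6 was the lowest of the 12 arrays for 5 of these 6 genes and replicate 1 for the remaining one, Cyp2d26. These SD ratios are descriptions of 6 animals a genotype, and the difference in spread was not tested.

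**Figure D3:**
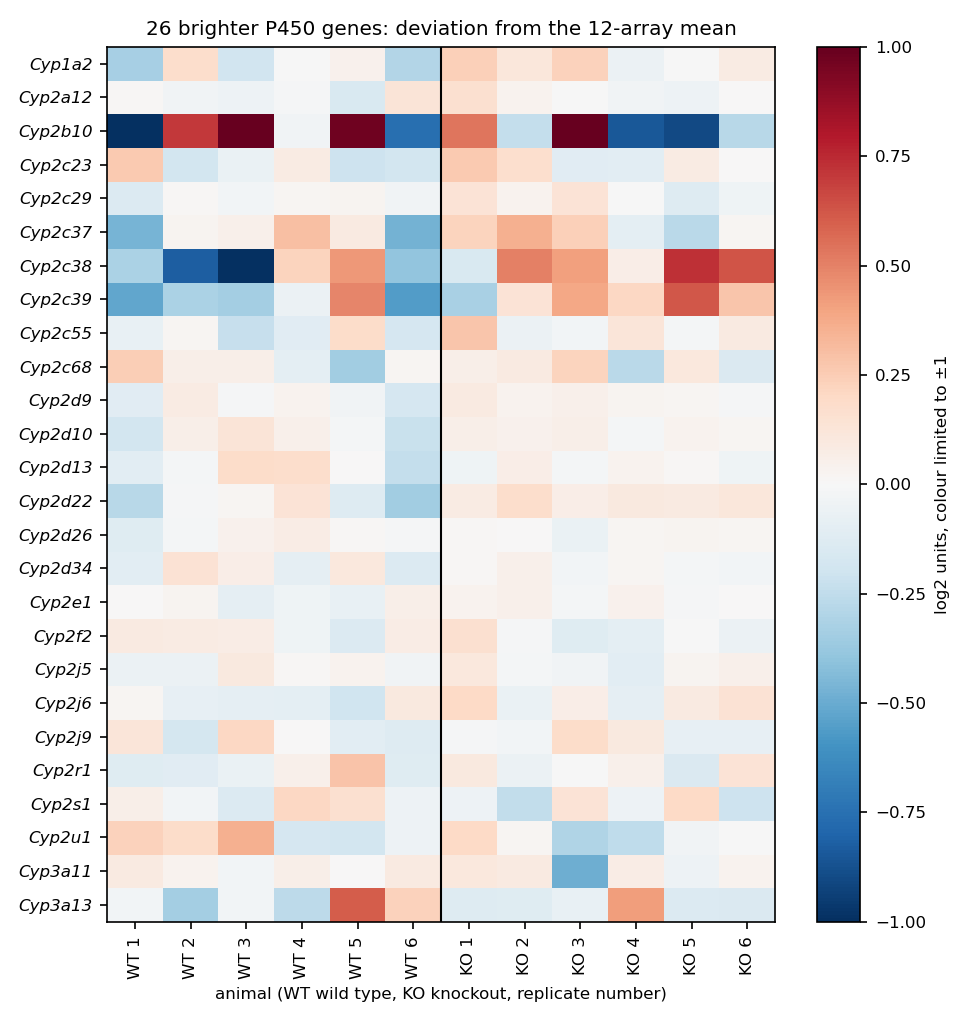
Deviation of log2(intensity + 50) from the 12-array mean (colour, blue below and red above, limited to 1 log2 unit either way) for the 26 members above the median probe set (rows) in each animal (columns, wild type left of the line). Wild type replicate 6 is below the mean across the Cyp2d genes, and the deepest colours belong to Cyp2b10 and Cyp2c38.

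Across the 26 brighter members, wild type replicates 1 and 6 had the lowest mean deviation of any animal, at -0.142 each, and knockout replicates 1 and 3 the highest, at 0.091 each. Cyp2b10 carried much of this for wild type replicate 1 and knockout replicate 3, and less for wild type replicate 6 and knockout replicate 1. Leaving it out was decided after the values were seen. Over the remaining 25 members the means were -0.073 and -0.117 for wild type replicates 1 and 6, still the lowest pair. For knockout replicates 1 and 3 they were 0.073 and 0.036. Knockout replicate 3 then no longer ranked among the highest pair, since knockout replicates 2 and 5 were at 0.055 and 0.043. Knockout replicate 1 was the highest of the 12 arrays for 9 of the 26 members and the lowest for 0. Knockout replicate 3 was the highest for 1 and the lowest for 2, and wild types 6, 5 and 1 were the lowest for 7, 5 and 4. Wild type replicates 1 and 6 were also the animals with the highest means of periportal genes (0.41 and 0.65 on the centred log2 scale, all other animals 0.13 or lower). Of the 9 periportal genes measured, all 9 had a log2 fold change below 0 (median -0.18, 0 called, 2 at an unadjusted limma p under 0.05). Of 11 pericentral genes all 11 were above 0 (median 0.18, 0 called, 5 at an unadjusted limma p under 0.05). Over all genes, 6.28% had an unadjusted limma p under 0.05 and 50.3% a log2 fold change above 0. The periportal median depended on single animals: it was -0.069 with 7 of 9 below 0 when wild type replicate 6 was omitted, and -0.40 when replicate 5 was. The pericentral median was 0.12 to 0.22 over the 23 other settings. Neither list holds a P450 gene. List means of the pericentral genes were -0.22 to 0.041 in wild type and 0.00066 to 0.15 in knockout. Their part in the P450 values was not tested.

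**Figure D4:**
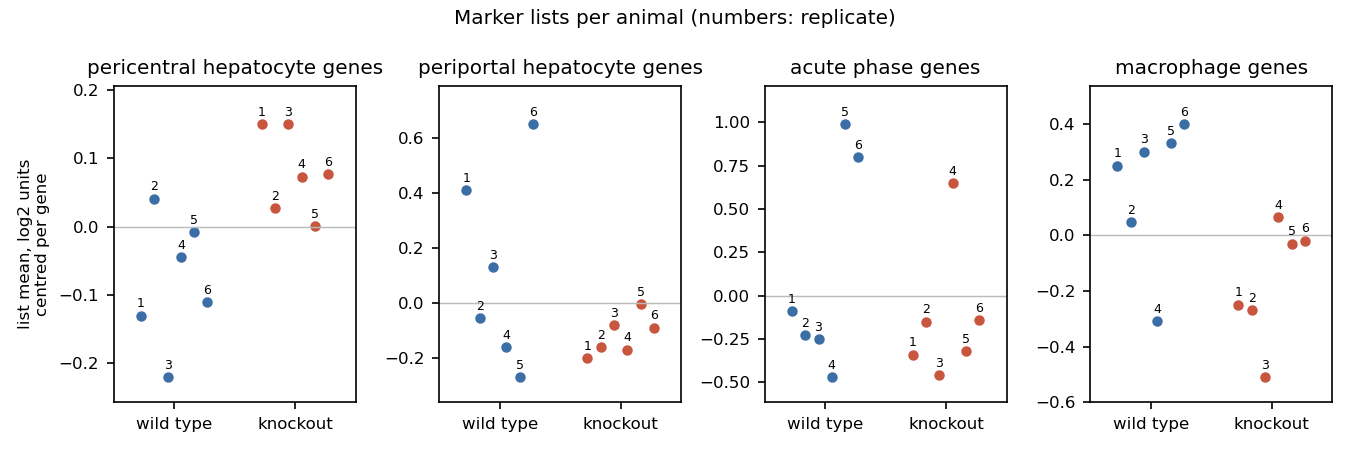
Mean log2 value of 4 marker lists, each gene centred on its 12-array mean (y axis, log2 units), in each animal; numbers beside the points are replicate numbers, blue is wild type and red knockout. Wild type replicates 1 and 6 are highest for periportal genes (0.41 and 0.65), and wild type replicates 5 and 6 and knockout replicate 4 are highest for acute phase genes (0.99, 0.80 and 0.65).

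Of the zoned P450 genes, Cyp2e1 and Cyp2f2 had log2 fold changes close to 0, and Cyp1a2 was higher in the knockout at the unadjusted threshold. Cyp2e1, which oxidises ethanol, acetone and paracetamol, read 14605.2, 15378.7 and 16256.02 in wild type and 15408.88, 15834.1 and 16131.33 in knockout. Its log2 fold change was 0.037 with a 95% interval from -0.054 to 0.13. Cyp2e1 was among the least variable genes of the array, at percentile 1.29 of the SD between animals. Its readings lie near the array maxima of 18464.68 to 19808.27, and whether the signal was still proportional there was not tested. The same limit holds for Cyp3a11, which reached 16155.83, and for Cyp2c29, which reached 14432.74. Cyp2f2, which activates naphthalene in mice, read 8767.67, 10172.1 and 10263.91 in wild type and 8860.94, 9437.5 and 10802.69 in knockout (-0.046, 95% interval -0.17 to 0.079). For Cyp2f2, 5 of 6 knockout animals lay below the wild-type median, yet the highest reading was a knockout.

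Cyp1a2, the aryl hydrocarbon receptor target that metabolises caffeine, read 5870.22, 6922.4 and 8337.96 in wild type and 7087.93, 7920.6 and 8735.9 in knockout. All 6 knockout animals were above the wild-type median, and 3 wild types were below every knockout. Its means were 6946 ± 980 and 7952.9 ± 675, with a log2 fold change of 0.20 (SE 0.086, 95% interval 0.018 to 0.38, limma adjusted p = 0.774). The 2 lowest wild types for Cyp1a2 were replicates 1 and 6. Cyp1a1, the most inducible target of the same receptor, was dim at 29.1, 33.6 and 52.72 in wild type and 23.04, 35.7 and 46.6 in knockout (-0.042), and Cyp1b1 was dimmer still, with all animals at or below 16.63 (-0.021). At that level signal is close to background, so neither value shows whether the gene was expressed.

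In the Cyp3a subfamily, the principal drug oxidisers of liver and gut, each of the 5 measured members was below 0 (median log2 fold change -0.076, 0 of 5 called). With the title number as a factor in the fit, in the animals with titles beginning with 72, or without wild type replicates 5 and 6, only 3 of the 5 were below 0. Of the 5 genes, Cyp3a16, Cyp3a41a and Cyp3a44 were dimmer than the median probe set.

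Cyp3a11, the main adult hepatic Cyp3a enzyme of mice and a classic PXR target, was set apart by a single animal. Wild types read 14698.84, 15456.1 and 15925.42, and knockouts 10697.13, 15566 and 16155.83. Knockout replicate 3 held the low value, while the other 5 knockouts lay between 14489.41 and 16155.83. The log2 fold change came to -0.077 (SE 0.085, limma adjusted p = 0.921) with that animal and 0.012 without it.

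Cyp3a13, a Cyp3a form of liver and intestine, read 3068.53, 3835.2 and 5974.28 in wild type and 3529.19, 3582.1 and 5237.22 in knockout (log2 fold change -0.061, 95% interval -0.36 to 0.24). The 3 highest animals were wild type replicates 5 and 6 and knockout replicate 4, at 5974.28, 4597.36 and 5237.22, and all others were at or below 3841.03. The same 3 animals had the highest means of the 20 acute phase genes, proteins that liver secretes in inflammation, at 0.99, 0.80 and 0.65 against -0.091 or lower elsewhere. Between the genotypes, 17 of the 20 acute phase genes were below 0 (median -0.071, 0 called, 0 at an unadjusted limma p under 0.05). Without wild type replicates 5 and 6, 15 of the 20 were above 0 (median 0.07) and Cyp3a13 had a log2 fold change of 0.13. Among animals with titles beginning with 72, 12 of the 20 were above 0 (median 0.041), and without replicate 5 or 6 alone the median was -0.022 or -0.025. The part of the acute phase genes in these readings was not tested.

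Cyp3a44, a female-biased gene in mice, was the member with the lowest unadjusted p below 0. It read 9.95, 13.0 and 23.08 in wild type and 1.22, 4.69 and 15.28 in knockout, and 5 of 6 knockouts lay below every wild type, the exception being replicate 1. The log2 fold change came to -0.20 (SE 0.065, 95% interval -0.34 to -0.06, limma adjusted p = 0.747). All of these readings are below the median probe set, and the size of the fold depends on the offset (-0.47 with an offset of 16). Cyp3a16, known as a fetal form, was likewise dim (-0.061, all animals at or below 15.83).

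Cyp2b10, the classic CAR target that phenobarbital induces, varied more between animals than nearly any other gene on the array. Wild-type animals read 329.97, 1758.7 and 3237.64, and knockout animals 691.17, 1113.6 and 3790.06. The highest animal was 11.5-fold above the lowest, both genotypes spanned most of that range, and the SD within genotype of 1.06 log2 units lay at percentile 99.9 of all genes. Means were 1755 ± 1135.6 and 1566 ± 1182.6, and the log2 fold change of -0.086 had a 95% interval from -1.14 to 0.97 that takes in large differences in either direction. The other probe sets of the gene gave -0.081 and -0.17.

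The animals high in Cyp2b10 were also high in its relative Cyp2b9, a female-biased gene that was dim here. The 4 highest animals for both genes were wild type replicates 2, 3 and 5 and knockout replicate 3, with Cyp2b10 at 2213.09, 3237.64, 2672.24 and 3790.06 and Cyp2b9 at 31.85, 51.37, 45.31 and 44.34. For Cyp2b9 wild types read 10.24, 23.5 and 51.37 and knockouts 8.88, 12.6 and 44.34, with a log2 fold change of -0.18 (95% interval -0.48 to 0.12). Probe sets of such similar genes can share signal, which was not tested. Knockout replicate 3, the highest animal for Cyp2b10, was the lowest for Cyp3a11. Wild type replicate 1 was the lowest for Cyp2b10 and for Cyp1a2.

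The window before the Cyp2b10 start is shown as that of the most variable member, at chr7:25897408-25897657 on the plus strand of GRCm38.p6. Capitals mark GCGTG, the core letters bound by AHR and its partner ARNT, read on either strand.
Cyp2b10: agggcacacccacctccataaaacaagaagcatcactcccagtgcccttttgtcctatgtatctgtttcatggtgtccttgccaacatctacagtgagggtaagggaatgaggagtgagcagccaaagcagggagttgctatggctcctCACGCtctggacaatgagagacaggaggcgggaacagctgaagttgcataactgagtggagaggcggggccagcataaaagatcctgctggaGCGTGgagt
RefSeq windows of 250 bases were at hand for 32 of the 39 members, 34 windows in all. TATAAA on the gene strand occurred in 35.3% of the member windows and in 7.59% of 32851 windows over all genes. CAAAGTCCA, a motif of the hepatocyte factor HNF4, read on both strands, occurred in 14.7% and 0.384%. Its 5 member genes were Cyp2c65, Cyp2c68, Cyp3a11, Cyp3a16 and Cyp3a41a. GCGTG occurred in 20.6% of member windows and 28.2% of all windows, with matches at Cyp1a1 and Cyp1b1 but none at Cyp1a2. No matches overlap in the windows printed here, member windows of related genes are similar sequences, and a match is a description of letters only.

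**Figure D5:**
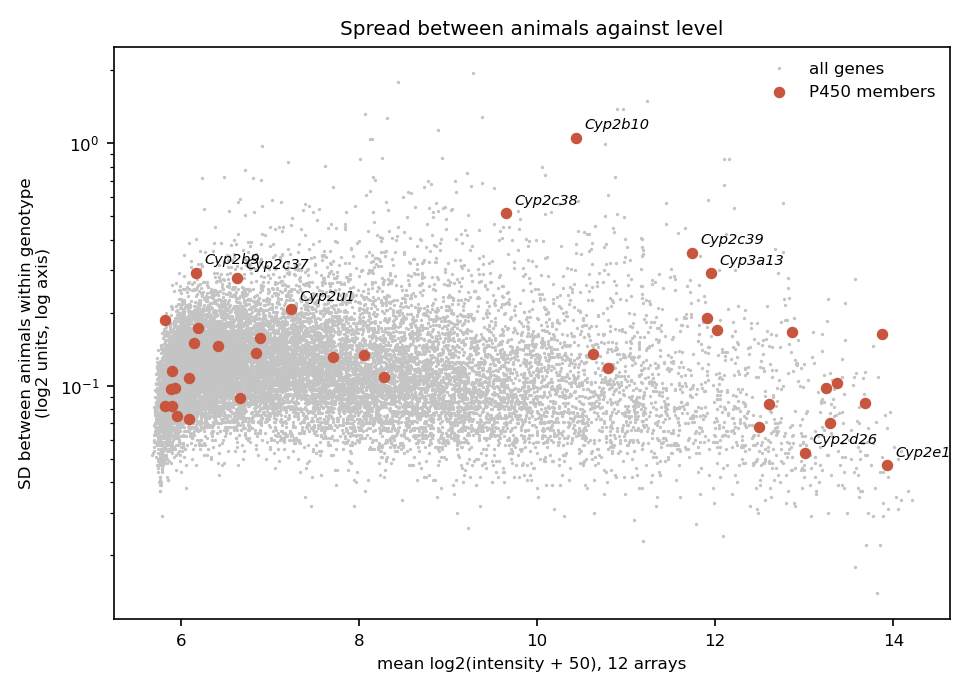
SD between animals within genotype (y axis, log2 units, log axis) against mean log2(intensity + 50) over 12 arrays (x axis), with all genes in grey and the 39 members in red. Cyp2b10, at an SD of 1.06, lies above nearly all genes, with Cyp2c38 (0.52) and Cyp2c39 (0.35) next among bright members, while Cyp2e1 (0.047) and Cyp2d26 (0.053) lie toward the lower edge of the cloud.

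Of the 39 members, 8 lay above percentile 90 of the SD between animals and 4 below percentile 10, and their median SD was 0.13 log2 units against 0.11 over all genes. The median standard error of a member's log2 fold change was 0.072, and that of all genes 0.064. The steady members were Cyp2e1, Cyp2d26, Cyp2j5 and Cyp2d9. Cyp2j5, an epoxygenase of liver and kidney, read 5469.76, 5665.6 and 6108.17 in wild type and 5295.55, 5712.8 and 6146.38 in knockout (log2 fold change 0.0035, 95% interval -0.10 to 0.11). Cyp2a12, a steroid hydroxylase of mouse liver, read 5542.65, 6054.5 and 6746.11 in wild type and 5938.77, 6158.8 and 6898.92 in knockout (0.037). A probe set that Cyp2a4 and Cyp2a5 share read 4287.48, 5301.2 and 8766.25 in wild type and 3564.21, 4778.2 and 6549.15 in knockout (-0.17, SE 0.17).

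Members with roles outside drug clearance showed no difference past the threshold. Cyp2r1, the vitamin D 25-hydroxylase, read 215 ± 31.2 in wild type (194.64 to 273.96) and 219 ± 18.7 in knockout (191.15 to 241.94), and the groups overlapped (0.025, 95% interval -0.13 to 0.18). Cyp2u1, a fatty acid hydroxylase, read 83.2, 109 and 143.51 in wild type and 72.26, 99.0 and 123.45 in knockout (-0.12, 95% interval -0.35 to 0.097), and its other probe sets were also below 0. The 5 measured Cyp2j genes had log2 fold changes from -0.025 to 0.12, and 4 of them were above 0. Probe sets disagreed for Cyp2j6 (0.12 and 0.0038) and in sign for Cyp1b1 and Cyp2d13.

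The genes that serve and regulate the P450s were taken as 3 lists, of which 69 of 70 genes were measured, and 0 of the 69 were called by limma, with 9 at an unadjusted p under 0.05 (background 6.28%). Among 19 genes of electron supply and heme turnover, 13 were above 0 (median 0.045). Por, the reductase on which every microsomal P450 depends, read 2288.33, 2997.6 and 3855.61 in wild type and 2527.94, 2909.1 and 3527.43 in knockout (-0.045, 95% interval -0.30 to 0.21). Cyb5b, the mitochondrial outer membrane form of cytochrome b5, had means of 2059.4 ± 250 and 2426.5 ± 243 (0.23). Cyb5a, another cytochrome b5 gene of the list and much brighter, had means of 12970.7 ± 534 and 13244.2 ± 398 (0.03). Alad, the second enzyme of heme synthesis, had means of 2431.6 ± 371 and 2811.3 ± 75.3 (0.22). Hmox1, the inducible heme oxygenase, had means of 282 ± 99.4 and 198 ± 32.0 (-0.38), with its highest readings in wild type replicates 6 and 1 (433.17 and 376.61). Their limma adjusted p-values were 0.747 to 0.978. Hmox1 is also expressed by macrophages, and 13 of 14 macrophage markers were below 0 (median -0.32, 0 called, 11 at an unadjusted p under 0.05 against 6.28% of all genes), with list means of -0.31 to 0.40 in wild type and -0.51 to 0.066 in knockout. The part of macrophages in the Hmox1 value was not tested.

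Among 24 regulators, 16 were above 0 (median 0.051). Nr1i3, which encodes CAR, read 1353.1, 1993.3 and 2458.3 in wild type and 2098.54, 2298.7 and 2627.3 in knockout. Of the wild types, 5 of 6 lay below every knockout, and the log2 fold change came to 0.31 (SE 0.12, 95% interval 0.06 to 0.55, limma adjusted p = 0.747). Ahr read 791.91, 999 and 1116.25 in wild type and 1059.85, 1137.3 and 1306.84 in knockout, again with 5 of 6 wild types below every knockout (0.26, SE 0.076, limma adjusted p = 0.747). Nr1i2, which encodes PXR, went the other way without passing, at 347 ± 63.4 and 322 ± 30.3 (-0.083). Hlf, a PAR bZIP factor of circadian output that acts on drug-metabolism genes in mice, read 251.86, 326 and 358.88 in wild type and 356.09, 405 and 437.7 in knockout (0.33, SE 0.082, limma adjusted p = 0.703). For Nr1i3 and Hlf, as for the mean of the brighter P450 genes, wild type replicates 1 and 6 were the lowest pair of animals.

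Among 26 measured genes of other phase I enzymes (flavin mono-oxygenases, carboxylesterases, epoxide hydrolases, oxidoreductases), 19 were above 0 (median 0.05). The 3 with the smallest p were all carboxylesterases of the Ces1 cluster. Ces1d read 2453.85, 4048 and 5704.77 in wild type and 4969.47, 5473.7 and 5954.49 in knockout (0.43, SE 0.14, limma adjusted p = 0.747), with wild type replicate 6 the lowest animal. Without that animal the log2 fold change of Ces1d was 0.28, and without replicates 5 and 6 it was 0.23. Ces1f had means of 5645.5 ± 679 and 6535.7 ± 624 (0.21), and Ces1g 337 ± 160 and 429 ± 57.2 (0.39, and 0.25 without wild type replicate 3). In the animals with titles beginning with 72, Ces1f was at 0.097. The Ces1 genes are close relatives, so their probe sets are not independent readings.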

How the data were processed

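Each of the 12 livers gave 1 array, with groups taken from the genotype label. The authors deposited linear intensities; the submitters' processing notes name RMA without a version. Of these values 689 are 0, and the step from RMA output to this scale is not given in these sources, so the meaning of the lowest intensities is uncertain. Both deposited tables hold the same intensities in all 540444 cells. The authors' deposited table adds a signed fold change, taken as a score, and unadjusted p-values. Its symbol block stands out of row order (1 accession matched as placed), so probe sets were named by their own gene number (36239) or accession (685) through RefSeq (GRCm38.p6), and 1271 with several genes and 6842 with none were left out.

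For each of 17965 genes the brightest probe set was tested on the log2(intensity + 50) scale, which shrinks the fold of dim genes. The test was limma 3.58.1 (lmFit, eBayes, two-sided; R 4.3.3), with Benjamini-Hochberg adjustment over all genes and a threshold of 0.05. Groups of 6 arrays limit the precision. In arrays simulated for this comparison with 17965 genes, the test recovered 58% of genes changed by 0.3 log2 units, 88% at 0.5, 98% at 1 and 100% at 1.5, and called 8 unchanged genes. In this simulation noise was drawn independently for each gene, and the number of changed genes was set in advance. For the real arrays that number is unknown and 1 of 17965 genes was called, so the shares recovered there may be lower. Motifs and alignments used Python 3.11.15 and Biopython 1.88.

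The members, the gene lists and the alternatives were chosen with earlier results of these data known. Members named individually were 8 well-known genes, the 4 per direction with the smallest p, the 12 brightest and the 3 most variable; of other genes, Sirt4, Por, Ahr, Nr1i2, Nr1i3 and 3 per pathway list. Genes named outside this rule were chosen after their values were seen. Lists of the other liver cell types without a value in the report had 0 genes called. These were stellate cell (8 of 11 below 0, median -0.11), sinusoidal endothelial (8 of 10 above 0, 0.047) and cholangiocyte (4 of 7 above 0, 0.008). Also without a call were neutrophil (7 of 7 below 0, -0.13), T and NK cell (5 of 8 below 0, -0.017), B cell (7 of 7 below 0, -0.066) and erythroid (3 of 5 above 0, 0.023). Of the B cell genes, 3 had an unadjusted limma p under 0.05, against 6.28% of all genes. B cell list means were -0.00097 to 0.24 in wild type and -0.20 to -0.0079 in knockout, without overlap.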

Additional observations from a re-analysis of the deposited data

Results flagged for a closer look

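Among 70 groups of 6 animals examined for the named genes, 5 held 1 animal that lay far from the rest, by the size of its gap to the nearest other animal relative to the range of the group. Chance flags about 1 in 20 groups. Cyp3a11 in knockout replicate 3 read 10697.13, against 14489.41 to 16155.83 in the other knockouts. Cyp2d26 read 7810.17 in the same animal, against 8197.14 to 8338.42, and Hmox1 134.93, against 195.09 to 219.77. Cyp3a13 in knockout replicate 4 read 5237.22, against 3529.19 to 3709.96. Cyp3a44 in wild type replicate 4 read 23.08, against 9.95 to 14.6, all of them dim.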

How the results depend on the processing

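The count of called members was 0 under all 23 other settings, and the lowest adjusted p of a named member under any of them was 0.4. The count at an unadjusted p under 0.05 was 5 and fell to 3 with a floor of 10 and to 3 without wild type replicate 1; leaving out 1 animal at a time gave 3 to 6. The median of members was 0.0029 to 0.056. Of the 23 named members, 16 kept their sign in each setting in which they had a value. Log2 fold changes reversed for Cyp2j5 after quantile normalization (-0.014); for Cyp1b1 with the mean of all probe sets (0.017) and without wild type replicates 5 and 6 (0.012); with the title number as a factor for Cyp1a1 (0.0036), Cyp2b10 (0.15) and Cyp3a13 (0.012); in animals with titles beginning with 72 for Cyp2b10 (0.59), Cyp3a13 (0.18) and Por (0.17); and without wild type replicates 5 and 6 for Cyp3a13 (0.13) and Por (0.048). The causes were not tested. Leaving out 1 animal at a time gave ranges across 0 for Cyp1a1 (-0.083 to 0.0074), Cyp2b10 (-0.47 to 0.15), Cyp3a11 (-0.11 to 0.012), Cyp2d26 (-0.016 to 0.022), Cyp2j5 (-0.017 to 0.025), Cyp3a13 (-0.15 to 0.054) and Por (-0.12 to 0.028). The call for Sirt4 was lost with an offset of 16 (adjusted p = 0.141), a floor of 10 (0.235), the title number as a factor (0.605), titles beginning with 72 (0.908) and without wild type replicates 5 and 6 (0.222), and leaving out 1 animal gave a log2 fold change of -0.56 to -0.48. Under these settings the median of all genes was at most 0.0084 in size. No paired analysis was possible because the labels give no replicate numbers that link animals of the 2 genotypes. Readings of the 13 members below the median probe set are close to background, which limits what their values show.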
